A study of Capra hircus with 4 samples.

Results

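The transcripts of 7 receptor genes were followed across the cell types and granulosa states of the goat ovary: the prolactin receptor PRLR, the leptin receptor LEPR, the relaxin receptor RXFP1, the prostaglandin receptors PTGFR, PTGER2 and PTGER4, and the oxytocin receptor OXTR. They were named as a list and are 7 of the 28944 genes in the matrices. The members were chosen by their levels across cell types and granulosa states in these same nuclei, so those levels are given as a description with no test, and only the comparison of breeds was tested.

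Prolactin and leptin act through single-pass receptors that work with the kinase JAK2 and STAT transcription factors. Relaxin, oxytocin and the prostaglandins act through receptors with multiple membrane passes that couple to G proteins: RXFP1, PTGER2 and PTGER4 raise cyclic AMP, and PTGFR and OXTR act mainly through phospholipase C and calcium. In the ovary, prolactin is known for its part in luteal function, leptin for tying reproduction to energy balance, relaxin for tissue remodelling, and prostaglandins for ovulation and luteal regression.

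The ovaries of 2 Nubian goats, chosen as animals with litters of at least 3, and of 2 Du'an goats, with litters of 1, were dissociated to nuclei. All 4 goats were about 3 years old and carried a device releasing progesterone (300 mg) over 17 days to synchronise estrus, and none received hormones for superovulation. Each goat gave 1 library from a droplet kit that reads the 3' end of RNA and tags each molecule with a unique molecular identifier (UMI), so isoforms of a receptor cannot be told apart and anything else the goats of a breed share cannot be told apart from breed. Levels are CPM, the UMIs of a gene scaled to a common total of all UMIs summed over the nuclei of 1 goat in 1 class, and values are listed in the order Du'an replicate 1, Du'an replicate 2, Nubian replicate 1 and Nubian replicate 2 throughout.

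After filtering, 44734 of 48332 nuclei remained, with 29800057 to 54540864 UMIs per goat. They formed 27 clusters, which were given a name with "-like" where known marker genes led them and were otherwise called by number. "Shallow" marks a cluster with few UMIs per nucleus, and 16 classes held at least 20 nuclei of every goat. Mural granulosa cell (GC)-like nuclei are missing from these 16 because Du'an replicate 1 had almost none, and oocyte markers such as BMP15, FIGLA and ZP4 were near 0 in every class. Of all barcodes, 361 occurred in more than 1 library, and none of these had identical counts. Nubian replicate 1 stood apart: among the 16 classes it held the highest PTGFR level of the 4 goats in 15 and the highest RXFP1 level in 14. Its PTGFR level was 17.9 CPM even in T or natural killer-like nuclei, where the other goats had 0, 3.15 and 1.97 CPM.

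In the kept nuclei, 11670 UMIs of PRLR lay in 4273 nuclei, 4682 of LEPR in 2018, 3142 of PTGFR in 2005, 2367 of RXFP1 in 1477 and 1242 of PTGER4 in 869. PTGER2 had 64 UMIs in 60 nuclei and OXTR 8 UMIs in 7 nuclei. Before the nuclei were filtered there were 16890 UMIs of PRLR, 6103 of LEPR, 4216 of PTGFR and 2564 of RXFP1. PTGER4 then had 2043 UMIs, PTGER2 106 and OXTR 21. The filter takes out nuclei with the most UMIs, and the UMIs of all genes fell from 225537272 to 167261302. Beside this, the share lost was larger for PRLR, PTGER4, PTGER2 and OXTR, and smaller for LEPR, PTGFR and RXFP1. For PRLR, RXFP1 and PTGFR the same class was highest in all 4 goats. This held for 3 of the 6 receptors with at least 20 UMIs, beside 20% of the 17476 genes with that many UMIs.

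**Figure D1:**
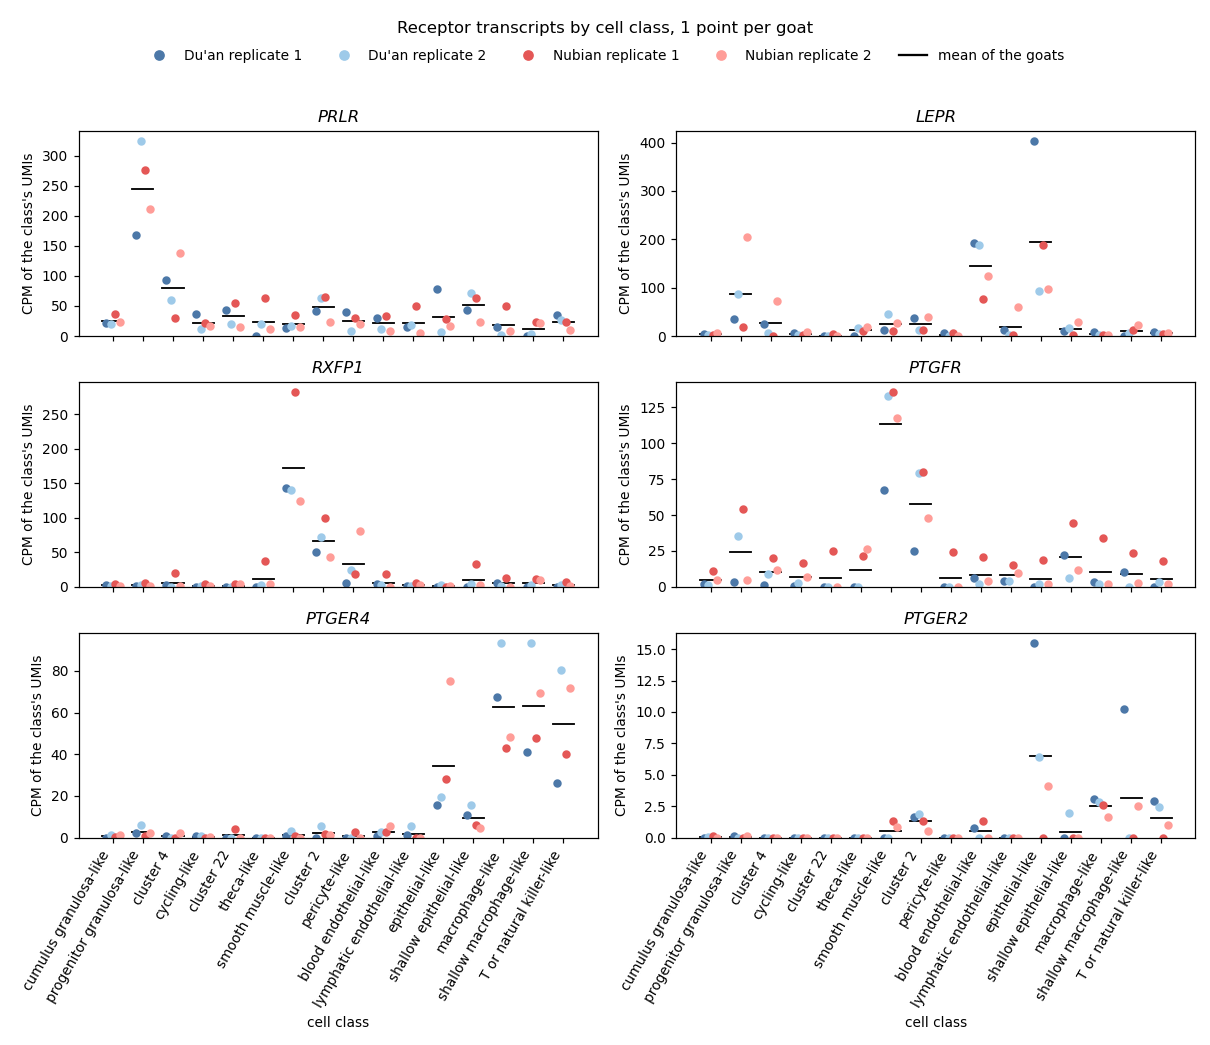
Each panel plots the level of 1 receptor (CPM of the class's UMIs, linear axis from 0) in the 16 cell classes, with 1 point per goat and a bar at the mean. PRLR stands highest in progenitor granulosa-like nuclei (168 to 324 CPM), RXFP1 and PTGFR in smooth muscle-like nuclei, and PTGER4 in macrophage-like and T or natural killer-like nuclei.

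PRLR was highest in the progenitor GC-like class of granulosa nuclei, which carries ENPP1, ANKH and IGFBP5. Its level there was 168, 324, 277 and 211 CPM, a mean of 245 ± 69.1 (SD, n = 4). In every goat this exceeded each of the other 15 classes. The next by the mean was cluster 4, which expresses RSPO2 and is rich in the follicle-stimulating hormone receptor FSHR. Cluster 4 had 93.1, 59.9, 29.9 (from 3 UMIs) and 138 CPM. Among the 16 classes it was second in Du'an replicate 1 and Nubian replicate 2, while shallow epithelial-like nuclei (72.3 CPM) were second in Du'an replicate 2 and cluster 2 (65.0 CPM), which is not granulosa by its markers, in Nubian replicate 1. Mural GC-like nuclei, which express the aromatase gene CYP19A1, had 82.0, 58.2 and 53.6 CPM in the 3 goats that held them. Cumulus GC-like nuclei were low, at 22, 19.6, 36.4 and 22.8 CPM. T or natural killer-like nuclei, which served as a class expected to lack granulosa transcripts, gave 35, 26.7, 23.8 and 10.8 CPM, a range that overlaps the cumulus values. Nuclei with at least 1000 UMIs were thinned to 1000 UMIs, and shallower nuclei were left out of the shares here and below. A PRLR UMI was then seen in 8.02% to 19.6% of progenitor GC-like nuclei, whose class had a median depth of 3516 to 6233 UMIs. The same share was 1.35% to 3.30% in T or natural killer-like nuclei, whose median depth was 2170 to 2743 UMIs.

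Within the progenitor GC-like class, a few nuclei carried much of the PRLR signal. When the granulosa set was clustered again, subcluster 13 held 33, 86, 27 and 20 nuclei, led by the metalloprotease ADAM12, LGR5 (a receptor for R-spondins), CBLN2 and fibronectin (FN1). Its PRLR level was 799, 588, 779 and 2085 CPM, above every other subcluster with at least 20 nuclei in all 4 goats. By comparison subcluster 6, which held the most progenitor GC-like nuclei, had 144, 108, 82.7 and 143 CPM. Genes of the fibroblast list moved with this difference: all 8 were higher in subcluster 13 than in subcluster 6, and their summed level was 1292 to 3735 CPM per goat against 116 to 279 CPM. Of the stromal list, 5 of 7 genes were higher, among them PDGFRA at 854 against 73.8 CPM over all goats, while FSHR was 306 against 930.0 CPM. Of the other lists, 5 of 10 general granulosa, 6 of 8 mural, 3 of 6 progenitor, 8 of 9 cycling and 7 of 9 T or natural killer genes were higher in subcluster 13. The part of these genes in the PRLR level was not tested.

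Subcluster 14 came from Nubian replicate 1 alone, with 95 nuclei, 52.6% of them in the progenitor GC-like class. It held PRLR at 3892 CPM (exact Poisson 95% interval 3693 to 4099, counting error only) and PTGFR at 1256 CPM (1144 to 1376). Together with the androgen-converting enzyme SRD5A2 and MYO5B, PTGFR was itself one of the leading genes of this subcluster. Oxytocin (OXT), a hormone of the ruminant corpus luteum, was present there at 122 CPM (89.0 to 163), while the theca enzyme CYP17A1 was at 0. FSHR stood at 1049.7 CPM, beside 930.0 CPM in subcluster 6 summed over all goats. Cluster 27 of the whole ovary, 46 nuclei of the same goat, overlaps subcluster 14 and is not a separate group. Of its 29 nuclei with at least 10 PRLR UMIs, 28 lay in subcluster 14. Its PRLR level was 4164 CPM (3914 to 4427) and its PTGFR level 1395 CPM (1252 to 1550). In Nubian replicate 1, the summed level of the fibroblast list was 564 CPM in subcluster 14 and 194 CPM in subcluster 6, and that of the stromal list 1231 and 459.95 CPM. Their part in the receptor levels was not tested. With 1 goat, this group has no replicate.

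Without subclusters 13 and 14, a choice made after the data were seen, PRLR in the progenitor GC-like class was 152, 94.1, 91.6 and 160.5 CPM, a mean of 125 ± 36.9. It remained above the other 15 classes in each goat. Fibroblast-like nuclei, which only Nubian replicate 1 held in number, are outside these classes and had 107 CPM (92.2 to 124) from 182 UMIs. Of the 182 nuclei with at least 10 PRLR UMIs, 174 belonged to the granulosa set, 95 of them to the progenitor GC-like class, 33 to cluster 4 and 29 to cluster 27. The granulosa set held 24048 of the 44734 kept nuclei. A fixed count also favours deep nuclei, and the median depth was 3516 to 6233 UMIs in progenitor GC-like but 2170 to 2743 in T or natural killer-like nuclei.

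**Figure D2:**
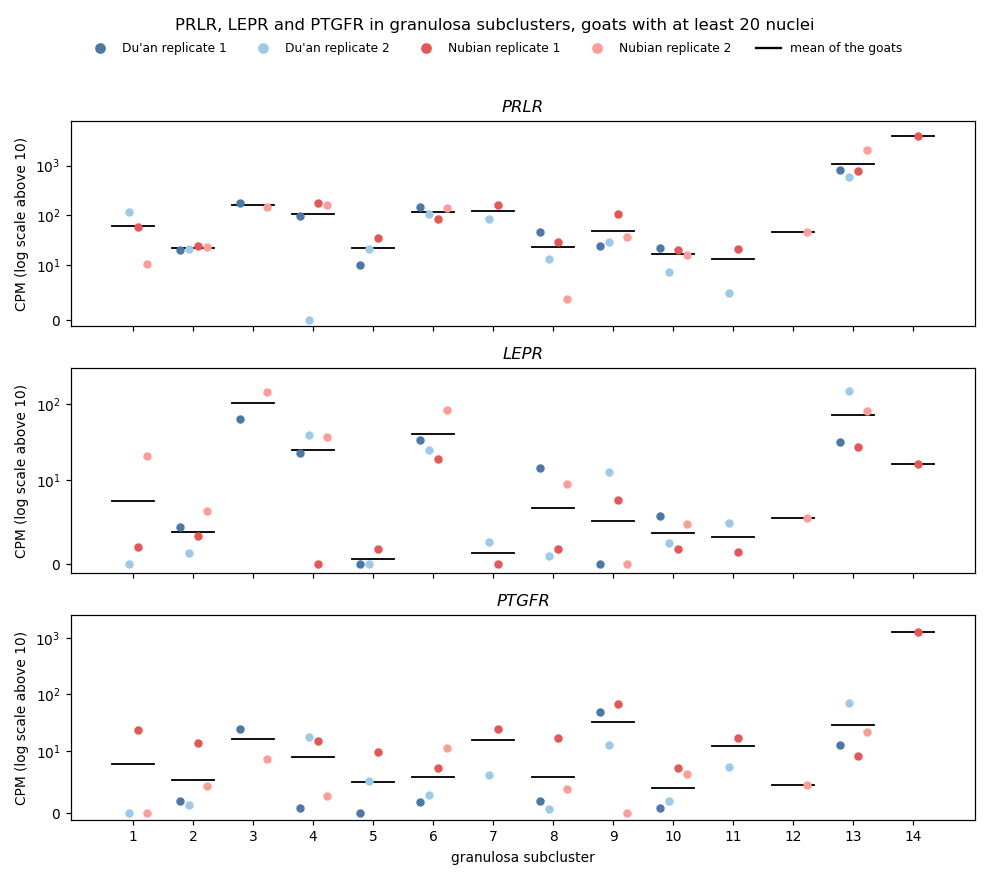
PRLR, LEPR and PTGFR levels (CPM, axis linear to 10 and logarithmic above) in the 14 granulosa subclusters, with 1 point for each goat that held at least 20 nuclei and a bar at the mean. Subcluster 13 stands above the other shared subclusters for PRLR (588 to 2085 CPM), and subcluster 14 is a single goat with high PRLR and PTGFR.

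LEPR was spread over epithelial, endothelial and granulosa nuclei, and no class was highest in all goats. Epithelial-like nuclei had 403, 92.5, 188 and 96.6 CPM, from 26, 43, 20 and 210 UMIs. The goats with the higher levels, Du'an replicate 1 and Nubian replicate 1, also had the higher fibroblast sums in this class (667 and 638 CPM, beside 153 and 125 CPM) and the higher smooth muscle sums (372 and 366 CPM, beside 127 and 81.8 CPM). Their epithelial sums were 449.9 and 329 CPM, beside 514 and 389 CPM. The other lists summed by goat (stromal, blood endothelial and macrophage) did not separate these goats. The remaining marker lists were not summed by goat. The stromal sums were 1272, 961, 1568 and 1947 CPM and the blood endothelial sums 124, 131, 65.7 and 26.7 CPM. The macrophage sums were 15.5, 23.7, 28.2 and 21.2 CPM. The part of these markers in the LEPR level was not tested. Blood endothelial-like nuclei had 192, 189, 75.7 and 125 CPM, and ciliated nuclei, found in Du'an replicate 2 and Nubian replicate 2, had 129.9 and 133 CPM. The epithelial-like and blood endothelial-like means of 195 ± 146 and 145 ± 55.8 CPM (SD, n = 4) overlapped within the spread of the goats. In T or natural killer-like nuclei LEPR was at 3.41 to 8.76 CPM. After thinning, 4.76% to 14.7% of blood endothelial-like nuclei held a LEPR UMI, beside 0.275% to 1.09% of T or natural killer-like nuclei.

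The blood endothelial-like class was made of clusters with unlike LEPR levels. Cluster 11, led by SELP (P-selectin), VWF (von Willebrand factor) and the carbonic anhydrase CA4, had 302, 274, 76.6 and 200.4 CPM in 370, 455, 425 and 126 nuclei. Cluster 19, led by the gap junction gene GJA5, the kinase BMX and the WNT inhibitor DKK2, had 17.7, 20.9, 74.6 and 34.1 CPM in 112, 138, 157 and 60 nuclei. LEPR was thus lower in cluster 19 in 3 goats, and nearly level between the clusters in Nubian replicate 1. All 8 blood endothelial markers were up in both clusters.

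In the granulosa set LEPR differed widely between goats. Progenitor GC-like nuclei had 35.3, 87.4, 19.7 and 205 CPM, and removal of subclusters 13 and 14 gave 35.4, 30.1, 19.97 and 209 CPM. Subcluster 3, led by LEPR itself, SMOC2 and the tachykinin gene TAC1, had 2838 of its 2961 nuclei in Nubian replicate 2, where LEPR was at 145 CPM from 1853 UMIs. The 104 nuclei of Du'an replicate 1 in subcluster 3 had 65.2 CPM. Cumulus GC-like nuclei had 1.39 to 6.90 CPM, within or below the range of T or natural killer-like nuclei.

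**Figure D3:**
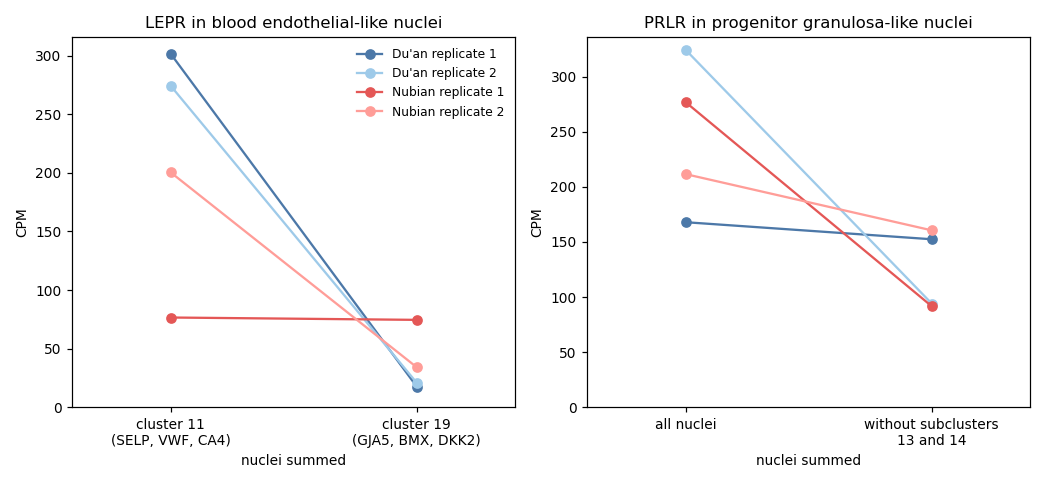
Levels (CPM, linear axis from 0) of LEPR in the blood endothelial-like clusters 11 and 19 on the left, and of PRLR in progenitor granulosa-like nuclei with and without subclusters 13 and 14 on the right, with 1 line per goat. In cluster 19 LEPR was 17.7 to 34.1 CPM in 3 goats and 74.6 CPM in Nubian replicate 1.

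RXFP1, the receptor of relaxin, was found in smooth muscle-like nuclei, at 144, 141, 283 and 124 CPM, a mean of 173 ± 73.7 (SD, n = 4). Cluster 2, a shallow cluster in which 8 of 8 smooth muscle and 6 of 8 fibroblast markers were raised, followed with 50.2, 72.1, 99.7 and 43.9 CPM. Pericyte-like nuclei had 5.76, 24.8, 19.1 and 80.8 CPM, from 1, 3, 7 and 8 UMIs. Endothelial, granulosa and immune classes had under 20 CPM in every goat. The smooth muscle-like class was led by ACTA2, CNN1 and LMOD1, and 7 of its 8 fibroblast markers were raised too, with a summed level of 1997 to 4597 CPM beside 3059 to 4849 CPM for the smooth muscle list. The stromal list summed to more than the smooth muscle list in every goat, at 5354 to 7480 CPM in this class and at 2715 to 4295 CPM, beside 1314 to 1613 CPM, in cluster 2. The part of these markers in the RXFP1 and PTGFR levels was not tested. After thinning, 9.90% to 19.9% of the class's nuclei held an RXFP1 UMI, at a median depth of 1339 to 1950.5 UMIs.

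PTGFR, the receptor of prostaglandin F2 alpha, shared this class, with 67.6, 133, 136 and 118 CPM and a mean of 114 ± 31.6 (SD, n = 4). Cluster 2 again came next, at 25.1, 79.5, 79.7 and 47.8 CPM. In the 14 other classes, the highest level outside Nubian replicate 1 was 35.3 CPM, in progenitor GC-like nuclei of Du'an replicate 2. In Nubian replicate 1, the PTGFR level ran from 10.8 to 54.5 CPM in these classes, highest in progenitor GC-like nuclei. Without subclusters 13 and 14, PTGFR in progenitor GC-like nuclei was 2.97, 2.51, 8.25 and 4.42 CPM. Theca-like nuclei, with CYP17A1 and CYP11A1, held 0, 0, 21.3 and 26.1 CPM from 0, 0, 4 and 7 UMIs, where 3 UMIs would be 7.51 to 28.8 CPM. Across the 16 classes, the mean levels of RXFP1 and PTGFR had a Pearson's r of 0.79 on the log2(CPM + 1) scale, over classes that share libraries.

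PTGER4, a receptor of prostaglandin E2, had its highest levels in immune and epithelial nuclei. Macrophage-like nuclei had 67.2, 93.3, 42.8 and 48.1 CPM, and shallow macrophage-like nuclei, led by the complement genes C1QA, C1QB and C1QC, had 41.0, 93.5, 47.7 and 69.6 CPM. T or natural killer-like nuclei had 26.3, 80.3, 40.03 and 71.9 CPM. These means of 62.9 ± 22.8, 63.0 ± 23.8 and 54.6 ± 25.6 CPM (SD, n = 4) did not differ beyond the spread of the goats. Epithelial-like nuclei had 15.5, 19.4, 28.2 and 74.9 CPM, from 1, 9, 3 and 163 UMIs, and were highest of all classes in Nubian replicate 2, with 41.2% of that goat's PTGER4 UMIs. Ciliated nuclei had 44.4 CPM in Du'an replicate 2 and 34.4 CPM in Nubian replicate 2. In granulosa, smooth muscle-like and blood endothelial-like nuclei PTGER4 stayed under 7 CPM in each goat.

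PTGER2, the other receptor of prostaglandin E2 that raises cyclic AMP, was scarce. Epithelial-like nuclei held 1, 3, 0 and 9 UMIs and macrophage-like nuclei 1, 6, 2 and 1 UMIs, that is 1.66 to 3.06 CPM in the latter. These counts are too low to order the classes. OXTR had 2, 1, 1 and 4 UMIs over all kept nuclei of the 4 goats. Smooth muscle-like nuclei held none, which allows up to 1.00 to 3.27 CPM per goat for a floor of 3 UMIs. In these nuclei OXTR was not detectable at this depth, and its 8 UMIs elsewhere lay in cumulus and mural GC-like (3 each), progenitor GC-like and cluster 4 nuclei.

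The genes with the most similar pattern across the 16 classes, by Pearson's r of log2(mean CPM + 1), were SLC25A12 (0.86), GUCY1A2 (0.86) and FAM126B (0.84) for PRLR. For LEPR they were SERTM1 (0.85), MET (0.85) and NFKB2 (0.84). MN1 (0.97), AGTR1 (0.95) and MRAP2 (0.94) were closest to RXFP1, and LOC106502449 (0.94), DPT (0.88) and RSPO3 (0.87) to PTGFR. DENND2D (0.96), GMIP (0.94) and SUSD3 (0.93) were closest to PTGER4. M6PR (0.92), AQP9 (0.90) and RAP1GAP2 (0.89) were closest to PTGER2, whose counts are few. The list for OXTR rests on 5 UMIs and is not named.

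Genes that make, bind or relay these signals had patterns of their own. Of 57 listed genes, 49 were among the features, and PRL, RLN1, RLN2, STAT5A, PTGDS, CBR1, GNAS and GNAQ were not analysed here. Leptin (LEP) had 1 UMI in its highest class. JAK2, the kinase of the prolactin and leptin receptors, was highest in macrophage-like nuclei, at 429 ± 96.2 CPM, and was 107 ± 12.4 CPM in progenitor GC-like nuclei (SD, n = 4 here and below). STAT3, which leptin activates, was highest in blood endothelial-like nuclei at 272 ± 51.4 CPM, where LEPR was also among its highest levels.

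Among ligands of the relaxin family, INSL3 reached 10.9 ± 9.19 CPM in theca-like nuclei. Its receptor RXFP2 reached 13.4 ± 9.19 CPM in lymphatic endothelial-like nuclei, a class where RXFP1 was low. In the prostaglandin list, smooth muscle-like nuclei, which carry PTGFR, held the prostacyclin synthase PTGIS at 166 ± 66.4 CPM. Macrophage-like nuclei, which carry PTGER4, held the thromboxane synthase TBXAS1 at 656 ± 197 CPM and the phospholipase PLA2G4A, which frees arachidonic acid, at 204 ± 120.0 CPM. The prostaglandin transporter SLCO2A1 was highest in blood endothelial-like nuclei, at 233 ± 33.5 CPM. Of the other prostanoid receptors, PTGER3 led, at 53.0 ± 47.1 CPM in epithelial-like and 28.0 ± 19.2 CPM in progenitor GC-like nuclei. The phospholipase C genes PLCB1 and PLCB4, which relay PTGFR and OXTR signals, were present in smooth muscle-like nuclei at 1348 ± 136 and 586 ± 120.4 CPM.

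**Figure D4:**
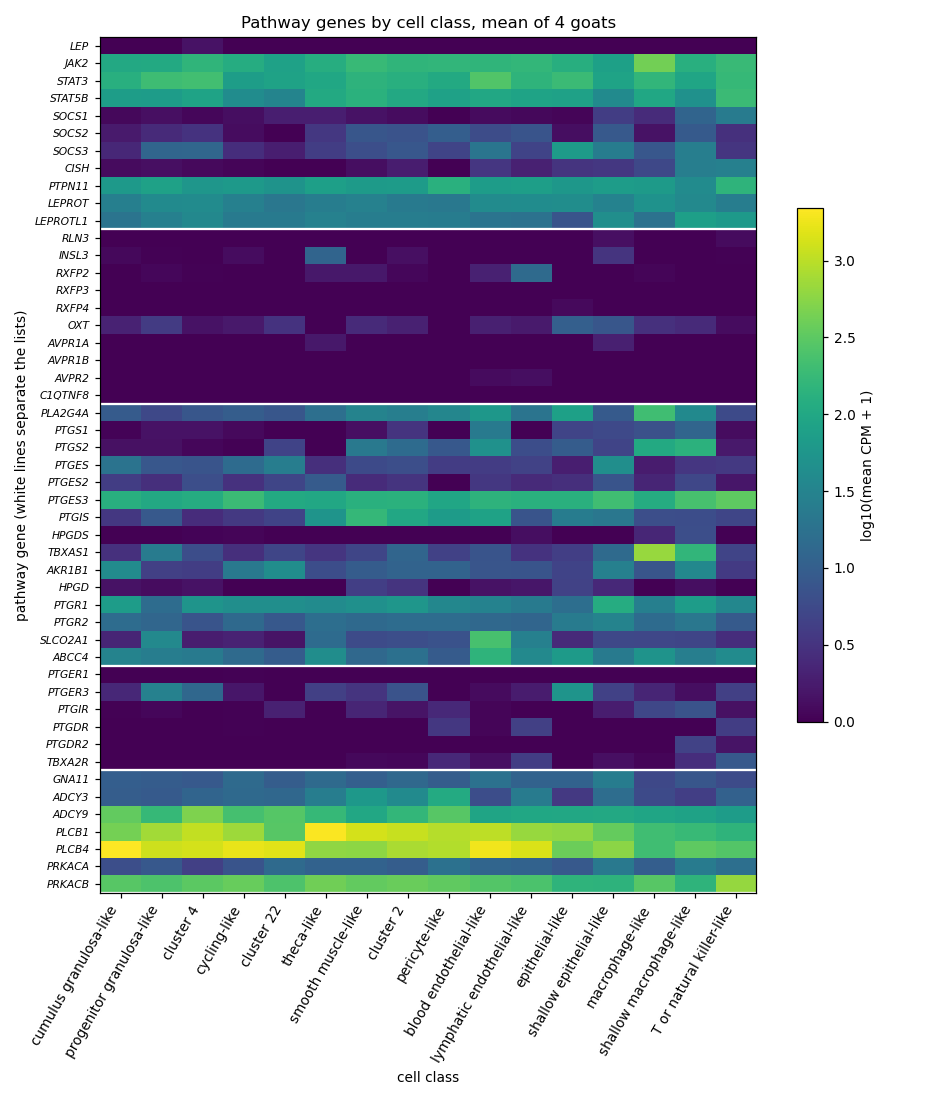
Mean level over 4 goats, as log10(mean CPM + 1) in colour, of the 49 measured pathway genes (rows, with white lines between the 5 lists) in the 16 cell classes (columns). TBXAS1 and JAK2 are highest in macrophage-like nuclei, SLCO2A1 in blood endothelial-like nuclei and PTGER3 in epithelial-like nuclei.

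The breeds were compared within each class on the summed counts, 2 Nubian against 2 Du'an goats, to ask whether the receptors differ between goats with larger and smaller litters. A receptor had enough counts for this test in 39 combinations of gene and class: 12 for PRLR, 10 for LEPR, 8 for PTGFR, 5 for RXFP1 and 4 for PTGER4, with PTGER2 and OXTR in none. At an adjusted p under 0.05, edgeR called 0 of the 39, beside 0 of 131002 combinations over all genes (0% called). DESeq2 also called 0 of the 39, beside 323 of 131002. At an unadjusted p under 0.05, edgeR gave 7 of the 39 and DESeq2 3 (7.69%), beside 3.87% of all combinations for edgeR and 2.24% for DESeq2. The values of the breeds did not overlap in 8 of the 39, beside 31.1% over all genes. With 2 goats a breed, an exact permutation test allows no p under 0.333.

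The 7 combinations under an unadjusted p of 0.05 fell on 3 receptors. LEPR in blood endothelial-like nuclei had means of 190.4 CPM in Du'an and 100.4 CPM in Nubian goats, a log2 fold of -0.95 ± 0.32 (SE; edgeR unadjusted p = 0.0255, adjusted p = 1.0). In cluster 11 of this class both Du'an goats were above both Nubian goats, and in cluster 19 both were below them. PTGER4 in macrophage-like nuclei had means of 80.3 and 45.5 CPM, a log2 fold of -0.94 ± 0.33 (edgeR unadjusted p = 0.0312, adjusted p = 0.922). LEPR in cluster 4 had a log2 fold of 1.45 ± 0.65 (edgeR unadjusted p = 0.0397, adjusted p = 1.0). Goats of both breeds overlapped, and Nubian replicate 1 was at 0, where 3 UMIs would be 29.9 CPM. That floor is above both Du'an values, 24.6 and 7.05 CPM.

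The other 4 were PTGFR, higher in Nubian goats in cumulus GC-like nuclei (1.48 against 7.80 CPM, log2 fold 2.39 ± 0.50), cycling nuclei (1.89 against 11.9 CPM, 2.58 ± 0.78), lymphatic endothelial-like nuclei (4.08 against 12.3 CPM, 1.66 ± 0.56) and cluster 4 (4.97 against 15.7 CPM, 2.22 ± 0.98). The edgeR unadjusted p was 0.00459, 0.0196, 0.0217 and 0.0374 and the adjusted p 0.993 or more. In all 4 the highest goat was Nubian replicate 1, at 10.8 to 19.9 CPM, beside 17.9 CPM in its T or natural killer-like nuclei. Its value in cluster 4 rests on 2 UMIs, where 3 UMIs would be 29.9 CPM. In smooth muscle-like nuclei, where PTGFR was high, the log2 fold was 0.41 ± 0.33 (edgeR unadjusted p = 0.26, adjusted p = 1.0).

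For the receptors in their highest classes the breeds overlapped. PRLR in progenitor GC-like nuclei had means of 246 CPM in Du'an and 244 CPM in Nubian goats, a log2 fold of -0.05 ± 0.36 (edgeR adjusted p = 1.0). RXFP1 in smooth muscle-like nuclei had 142 and 204 CPM, a log2 fold of 0.59 ± 0.39 (edgeR adjusted p = 1.0), which rests on Nubian replicate 1. LEPR in epithelial-like nuclei had 248 and 142 CPM, a log2 fold of -0.67 ± 0.70 (edgeR adjusted p = 1.0). PTGER4 in shallow macrophage-like nuclei had 67.3 and 58.6 CPM, a log2 fold of -0.40 ± 0.50 (edgeR adjusted p = 0.913).

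**Figure D5:**
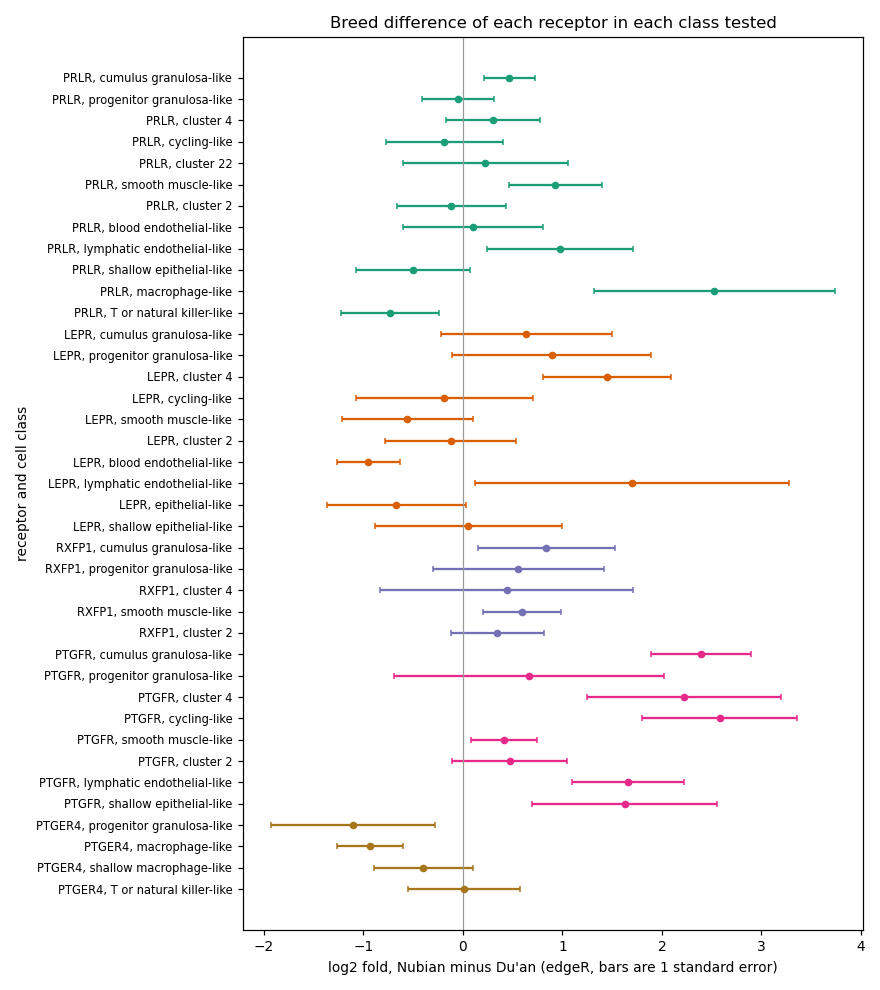
The log2 fold between breeds (Nubian minus Du'an, x axis) of each receptor in each class with enough counts (39 rows), with points from edgeR and bars of 1 standard error. Of the 39 folds, 7 had an unadjusted p under 0.05 and none passed adjustment, and the points farthest to the right are PTGFR in classes of low level and PRLR in macrophage-like nuclei.

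Pathway genes were tested in 296 combinations of gene and class. None was called by edgeR in either direction, and 17 had an unadjusted p under 0.05 (5.74%, beside 3.87% over all genes). The median log2 fold over the 296 was -0.01.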

How the data were processed

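For each library the authors deposited raw UMI counts by gene and nucleus, neither normalized nor pooled, from a droplet 3' kit. Per the labels the counts came from Cell Ranger 5.0.0, while the matrix header names another version. The study's methods link a numbered NCBI goat assembly as the reference without naming the build, and whether introns were counted is not given in the sources used here. The authors also deposited 2 tables of their own marker comparisons (log fold changes, shares of nuclei and p-values), which were not used.

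Nuclei were kept within the mean ± 2 SD of UMIs and genes of their library and under 20% mitochondrial UMIs. Scrublet (scanpy 1.11.5) marked 151 nuclei of 1 library and 0 of the others, so doublets were not effectively removed. Clusters came from the 2000 most variable genes, without the receptors and pathway genes, with 30 principal components and Leiden at a resolution of 0.8. Clusters were named from fixed markers by limits set after the data were seen: at least 3 markers up (10 CPM, log2 fold of 1 over the median cluster). One cumulus and one mural cluster had a marker of the general granulosa list (AMH, INHA) among their leading genes and none of their own. CYP17A1 and CYP11A1 were matched through RefSeq synonyms (ARS1.2). In that table no other gene overlaps a receptor.

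UMI counts were summed per goat and class. Breeds were compared with edgeR 4.0.16 (quasi-likelihood, TMM, filterByExpr, Benjamini-Hochberg over all genes of a class) and, as an alternative, DESeq2 1.42.0. Tested on simulated counts with 200 changed genes, edgeR recovered 100% of 8-fold changes among 12614 genes of cumulus GC-like and 10052 of smooth muscle-like nuclei. At the trended dispersion of the data (median 0.058 and 0.053) it recovered 34% and 29% of 2-fold changes, and at a dispersion of 0.05 it recovered 22% and 23%. No gene was given a spread of its own, so recovery of receptors that vary more between goats than the trend was not tested. The changed genes were drawn from those with higher counts, so recovery of receptors with few counts was not tested. The replicates are separate goats.

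The receptors and the lists were chosen with earlier results of these data known. Besides the receptors, genes named are those among the 2 highest of their pathway list in a class that is described, marker or leading genes of classes, and the 3 genes most alike each receptor among those with at least 10 CPM. LEP and OXT, and the genes named for subclusters 13 and 14, were picked after their values were seen. Intervals and floors cover counting error only. Replicate numbers are shared by the breeds in the labels only. The alternatives are given in the closing section.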

Additional observations from a re-analysis of the deposited data

Results flagged for a closer look

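For 55 combinations of receptor and class with at least 20 UMIs, the 4 goats were checked for 1 that stands far from the others. By chance about 1 in 20 such groups is picked. Here 5 were, and in all 5 Nubian replicate 1 was the highest goat. PRLR in smooth muscle-like nuclei was 35.5 CPM in it and 13.4 to 16.4 CPM in the others. PTGFR in macrophage-like nuclei was 33.7 CPM against 1.66 to 3.06 CPM. RXFP1 was 19.9 CPM against 0 to 2.36 CPM in cluster 4, 32.6 CPM against 0 to 3.91 CPM in shallow epithelial-like nuclei, and 283 CPM against 124 to 144 CPM in smooth muscle-like nuclei. The value in cluster 4 rests on 2 UMIs.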

How the results depend on the processing

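The levels of the receptors in their highest classes were followed under 77 alternatives, PTGER2 and OXTR with their few UMIs included. These covered other clusterings, doublet removal, scaling, averaging and leaving out each goat. Leaving out 1 goat cannot move the mean by 1 SD of the goats, so those alternatives could not differ. In 75 of the 77 the level moved by less than 1 SD of the goats. The exceptions concern PRLR in progenitor GC-like nuclei, which rose to 336 CPM with limits of 3 SD and fell to 125 CPM without subclusters 13 and 14, an alternative chosen after seeing the data. The cause of the first was not tested. Leaving out 1 goat gave 219 to 271 CPM for PRLR, 126 to 229 for LEPR in epithelial-like nuclei, 136 to 189 for RXFP1 and 106 to 129 for PTGFR in smooth muscle-like nuclei, and 52.8 to 70.3 for PTGER4 in shallow macrophage-like nuclei. With a minimum of 100 UMIs, 3308 of 14874 genes (22.2%) and 3 of 5 receptors had the same highest class in all goats.

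Without a filter on low counts, edgeR called 2 of 92 receptor combinations, beside 2012 of 270893 over all genes. The 2 were PTGFR in cycling nuclei (log2 fold 2.60, adjusted p = 0.00114) and PRLR in macrophage-like nuclei (adjusted p = 0.049), both highest in Nubian replicate 1. No other alternative called a receptor. Of the pathway combinations, edgeR without this filter called 1 higher in Nubian goats in progenitor GC-like, 1 lower in cycling and 2 lower in macrophage-like nuclei. It also called 1 lower in shallow macrophage-like nuclei without Du'an replicate 1 and 1 higher in T or natural killer-like nuclei without Nubian replicate 1. Over all genes the calls went from 0 of 131002 combinations to 323 of as many with DESeq2 and 2012 of 270893 without the filter. They were 1 of 117863 with marker genes left out of the variable genes and 4 of 130280 with the top 10% of doublet scores removed. Leaving out 1 goat gave 120 to 626 calls (the most without Nubian replicate 1), with the lone goat of a breed assumed to vary like the other breed's, and 0 receptor calls. With the replicate number as a block, 23 combinations were called and no receptor. Deviations of same-numbered goats correlated over 0.1 in 3 of 16 classes and under -0.1 in 5, so the numbers give no pairing. The crossed pairing, chosen after seeing the data, gave 113 calls and no receptor.

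Of the folds between breeds that are named, PRLR in progenitor GC-like nuclei changed sign to 0.0082 with the replicate block, 0.0095 with the crossed pairing, 0.91 with marker genes left out and 0.030 with doublet scores removed. Without 1 goat, this fold ran from -0.45 to 0.49, LEPR from -8.86 to 2.80 in cluster 4 and from -1.49 to 0.47 in epithelial-like nuclei, PTGER4 from -0.74 to 0.53 in shallow macrophage-like nuclei, PTGFR from -0.021 to 0.97 and RXFP1 from -0.21 to 1.09 in smooth muscle-like nuclei. PRLR turned without Du'an replicate 2 or Nubian replicate 2. Leaving out Nubian replicate 1 turned RXFP1, Du'an replicate 1 PTGFR and LEPR in epithelial-like nuclei, Du'an replicate 2 PTGER4 and Nubian replicate 2 LEPR in cluster 4. PTGER2 and OXTR had too few kept UMIs for any comparison.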
